A study of Mus musculus with 11 samples.

Results

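The translation initiation and elongation factors are the proteins that bring a ribosome to an mRNA, set it on the start codon and move it along the message. They were taken as the protein-coding mouse genes whose symbols begin with Eif or Eef followed by a digit, without the eIF4E-binding proteins (Eif4ebp) and the eIF2 kinases (Eif2ak). This rule found 61 genes in the annotation, of which 60 were in the count tables, out of 50686 genes and 21764 protein-coding genes in all. By role, 5 members belonged to eIF1 and eIF1A, 4 to eIF2, 5 to eIF2B, 14 to eIF3, 13 to eIF4, 5 to eIF5 and eIF6, 6 to eEF1, 2 to eEF2 and 4 to the methyltransferases of elongation factors, and Eif2a and Eif2d stood apart from these complexes.

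RNA-seq libraries were made from GL261 tumours, a mouse glioma cell line grown in the brain of C57BL/6 mice, and from TAM-MG, the microglia-derived tumour-associated macrophages sorted from such tumours as live CD11b+ CD45low cells. Rheb1 KO mice were Cx3cr1-Rheb1 Δ/Δ, with a tamoxifen-inducible Cre in the Cx3cr1 locus and a floxed Rheb1 gene. WT mice were Rheb1 fl/fl without Cre and received tamoxifen too, so both genotypes carried the floxed allele. Tumour cells were injected at 6 weeks of age, 3 weeks after tamoxifen, and samples were collected 3 weeks later. There were 3 bulk tumours of Rheb1 KO mice (36, 37 and 26) and 3 of WT mice (35, 38 and 110), and 3 TAM-MG samples of Rheb1 KO mice (54, 63 and 65) and 2 of WT mice (74 and 78). Formalin-fixed and paraffin-embedded slides gave the bulk RNA, which includes tumour cells and other cells without Cre, whereas TAM-MG RNA came from fresh sorted cells. Where nothing states that libraries of a group come from separate mice, p-values measure only the spread between these libraries.

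Initiation begins when eIF4E binds the cap of an mRNA and joins the scaffold eIF4G and the helicase eIF4A. The 40S ribosomal subunit meanwhile carries eIF1, eIF1A, eIF3 and eIF2, and eIF2 brings the initiator tRNA and is recharged with GTP by eIF2B. During elongation eEF1A delivers each aminoacyl-tRNA, the eEF1B subunits recharge it, and eEF2 moves the ribosome by a codon. Rheb switches on mTORC1, which releases eIF4E from its binding proteins and favours translation of mRNAs with a 5′ terminal oligopyrimidine (TOP) tract, a class that holds many elongation factors and ribosomal proteins. These steps act on proteins and on translation, and the measurements here are of mRNA level only.

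The first bases of a transcript decide whether it is a TOP mRNA, so the annotated starts were examined for runs of C or T. RefSeq promoters (GRCm38.p6) were matched for 47 members, 6 of them on a list of 10 TOP mRNAs among the factors. A run of at least 4 C or T bases from the annotated first base was found in 4 of the 47 members (8.51%), against 6.86% of 32851 promoters. Of the 6 on the list, Eif3f (11 bases) and Eef1a1 (5 bases) had such a run. Eif4b had a run of 1 base, and Eef1a2, Eef1b2 and Eef2 had a run of 0. Windows of 30 bases, with 10 before the annotated start and 20 from it, are shown for 3 TOP mRNAs of the list and for both genes of eIF2 gamma, with the longest run of C or T in capitals.

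Eif3f (chr7:108934405-108934434, plus strand): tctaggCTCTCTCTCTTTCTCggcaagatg
Eef1a1 (chr9:78481705-78481734, minus strand): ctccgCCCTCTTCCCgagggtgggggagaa
Eef2 (chr10:81176621-81176650, plus strand): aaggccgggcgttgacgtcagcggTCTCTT
Eif2s3x (chrX:94212632-94212661, minus strand): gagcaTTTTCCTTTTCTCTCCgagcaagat
Eif2s3y (chrY:1010585-1010614, plus strand): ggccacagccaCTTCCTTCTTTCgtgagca

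The run spanned the annotated start in Eif3f (15 bases), Eif2s3x (16 bases) and Eef1a1 (10 bases). A run as long was present in 0.825%, 0.645% and 4.77% of all such windows. Eif2s3y had a run of 12 bases just downstream of its start, with as long a run in 2.12% of windows. The run of Eef2 reached the last base of its window, so its 6 bases may be cut short. Of all windows, 28.7% held a run of at least that length. The longest run was 4 bases in the window of Eef1b2 and 7 bases in that of Eif4b, which are not shown. As long a run was present in 68.6% and 17.9% of windows. An annotated start can lie some bases away from the start used in these cells, and a run is a description of the letters only.

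Library totals were 14940787 to 19798998 counts in bulk Rheb1 KO, 15606224 to 21991348 in bulk WT, 22132236 to 25945816 in TAM-MG Rheb1 KO and 20765767 to 29947977 in TAM-MG WT. The factors took 0.848 to 1.23% of all counts in bulk Rheb1 KO and 0.914 to 1.08% in bulk WT. In TAM-MG they took 1.13 to 1.33% in Rheb1 KO and 1.28 to 1.34% in WT. Rheb, the gene deleted in Cx3cr1-expressing cells, had 125, 146 and 225 CPM in bulk Rheb1 KO tumours, against 348, 235 and 329 CPM in WT tumours. CPM are counts scaled to a fixed library total, without regard to gene length. In TAM-MG it had 67.8, 70.0 and 71.2 CPM in Rheb1 KO cells, against 86.5 and 164 CPM in WT cells. The genotypes did not overlap in either experiment, and the log2 differences were -0.88 ± 0.32 in bulk tumours (SE, edgeR adjusted p = 0.426) and -0.85 ± 0.34 in TAM-MG (adjusted p = 0.552). A gene count sums all exons of Rheb, also those left in place when the floxed exon is deleted.

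TPM divide estimated transcript reads by length and scale them to a library total. As listed, they sum to 617081 to 641993 in bulk Rheb1 KO, 625644 to 642370 in bulk WT and 1000000 in each TAM-MG library. Bulk and TAM-MG values as listed are thus not on one scale, and for level they were rescaled to the same sum over shared genes. Compared per length, in TPM, the factors had a steep order within a library. Eef1a1, which encodes the main carrier of aminoacyl-tRNA, ranked first in all 11 libraries and held 18.1 to 26.6% of the summed TPM of the factors in bulk tumours and 23.8 to 29.0% in TAM-MG. It had 1067, 1938 and 1665 TPM in bulk Rheb1 KO tumours and 2080, 2207 and 2129 TPM in bulk WT tumours. In TAM-MG it had 2822, 2789 and 2906 TPM in Rheb1 KO cells and 2794 and 2933 TPM in WT cells. Eif1, which guards the choice of start codon, was second in every bulk tumour among the factors with a bulk TPM, with 10.3 to 14.0% of their TPM. Eef1b2, Eif2s3x and Eif3j2 had no bulk TPM, so the bulk ranks and shares leave them out. By counts, which take no account of length, Eef1b2 had 75560 over the bulk tumours, against 68735 for Eif1 and 56130 for Eef1a1. Its place per length in bulk tumours, also relative to Eef1a1, is not known. Eif4e1b, an oocyte relative of eIF4E, had no counts in any library, where 3 counts would have been 0.1002 to 0.2008 CPM. In TPM, however, it was listed at 0.327 to 6.95 in bulk tumours and at 0.0123 to 1.31 in TAM-MG, so the 2 units differ on whether it was detected.

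The comparison of Rheb1 KO with WT asked whether loss of Rheb1 in Cx3cr1-expressing cells changed factor mRNA. In bulk tumours the estimates of most factors were within 1.5-fold between the genotypes. Their median SE was 0.375 in log2 units, so a larger change is not excluded for a single factor. Of 59 members tested, 33 had a positive and 26 a negative log2 fold change, with a median of 0.07 against 0.003 over all 17028 genes, and 47 were within 1.5-fold. The balance depended on unit and scaling. In TPM 22 were positive and 36 negative, with a median of -0.18 against -0.08 over all genes. With library size alone 28 were positive and 31 negative, with a median of -0.02 against -0.09 over all genes. None was called by the edgeR quasi-likelihood test (adjusted p under 0.05 and at least 1.5-fold), nor was any other gene (0% of those tested). At an unadjusted p under 0.05, 2 members were higher and 4 lower, against 3.82% of all genes higher and 5.19% lower, so their number was near the background. The likelihood ratio test of edgeR and DESeq2 each called 1 member, Eef1e1, lower, against 1.53% and 3.23% of all genes called lower by these tests, so 1 of 59 members was near or below the background.

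Eef1e1 encodes an auxiliary protein of the multi-tRNA synthetase complex that is related to the eEF1 subunits. It had 15.5, 16.3 and 14.4 CPM in bulk Rheb1 KO tumours, against 35.2, 66.5 and 52.9 CPM in WT tumours. Every Rheb1 KO tumour was below every WT tumour, and the log2 fold change was -1.74 ± 0.48 (SE, edgeR adjusted p = 0.224), with an adjusted p of 0.044 in the likelihood ratio test and 0.000894 in DESeq2. In TPM, too, the Rheb1 KO tumours (2.16, 3.25 and 3.21) lay below the WT tumours (8.35, 14.5 and 11.03). The fold change stayed between -1.98 and -1.54 when any tumour was left out.

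The other members with a small unadjusted p had larger adjusted ones. Eif2s1, the alpha subunit of eIF2 that the stress kinases phosphorylate, had 37.7, 46.1 and 56.0 CPM in bulk Rheb1 KO tumours, against 110, 65.3 and 89.7 CPM in WT tumours (-0.92 ± 0.36, adjusted p = 0.470). Eif4e3, an atypical cap-binding relative of eIF4E, had 3.71, 11.6 and 4.02 CPM in Rheb1 KO tumours, against 24.6, 19.5 and 23.3 CPM in WT tumours (-1.80 ± 0.78, adjusted p = 0.527). Eef1akmt2, a lysine methyltransferase of eEF1A, had 5.31, 14.5 and 3.66 CPM in Rheb1 KO tumours, against 23.7, 33.2 and 20.03 CPM in WT tumours (-1.71 ± 0.76, adjusted p = 0.540). The groups did not overlap for any of these genes. Eef1akmt2 overlaps Fgfr2 on the same strand and Eif4e3 overlaps Gm20696, so reads at these loci may be divided between genes.

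Microglia and macrophage transcripts were, as a group, also lower in bulk Rheb1 KO tumours. The summed level of 10 microglia markers, scaled over all 11 libraries, was 28.1 to 123 CPM in bulk Rheb1 KO tumours and 212 to 398 CPM in WT tumours, and 5 of the 10 were lower at an unadjusted p under 0.05. For 10 markers shared with macrophages it was 409 to 817 CPM in Rheb1 KO tumours and 1177 to 1722 CPM in WT tumours, and 8 of the 10 were lower. Of all genes, 5.19% were lower at that threshold. None of the 20 markers was at 0 in either genotype. Eef1e1, Eif2s1, Eif4e3 and Eef1akmt2 were all lower in bulk tumours than in TAM-MG, by log2 values of -1.14, -2.06, -1.22 and -1.75, of which that of Eif4e3 missed the threshold (adjusted p = 0.0556). Whether the marker differences had a part in these results was not tested. In bulk tissue, fewer cells of a type and less RNA per cell cannot be told apart.

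Higher in bulk Rheb1 KO tumours were Eif2b4, the delta subunit of the exchange factor eIF2B, and Eif1. Eif2b4 had 54.01, 95.01 and 69.6 CPM in Rheb1 KO tumours, against 42.5, 47.1 and 24.3 CPM in WT tumours (0.94 ± 0.41, adjusted p = 0.532). Eif1 had 911, 724 and 764 CPM in Rheb1 KO tumours, against 482, 603 and 483 CPM in WT tumours (0.61 ± 0.27, adjusted p = 0.539). Neither gene overlapped between the genotypes in CPM. In TPM Eif2b4 had 58.0, 111 and 104 in Rheb1 KO tumours and 60.4, 45.8 and 56.5 in WT tumours, which overlapped. Its log2 fold change there was 0.69 ± 0.35 (limma, adjusted p = 0.557). In TPM, however, Eif1 had 605, 1048 and 716 in Rheb1 KO tumours and 1063, 1114 and 1198 in WT tumours, the opposite order, and its log2 fold change was -0.55 on that scale, so no direction is given for it. Eif2b4 overlaps Snx17 on the other strand, and the strand setting of the counting is not given in the sources used here.

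The large eIF3 complex, which holds the 40S subunit and recruits it to mRNA, showed 9 positive and 5 negative values over 14 subunits in bulk tumours, with a median of 0.21 and none at an unadjusted p under 0.05, and in TPM the values of Eif3c, Eif3d and Eif3g were negative. Eif3b had 155, 233 and 146 CPM in Rheb1 KO tumours, against 115, 124 and 113 CPM in WT tumours (0.60 ± 0.30, adjusted p = 0.604), with no overlap. In TPM, however, its groups overlapped, with 66.9, 94.4 and 83.6 in Rheb1 KO tumours and 67.2, 59.8 and 77.2 in WT tumours. Eif3e had 203, 431 and 287 CPM in Rheb1 KO tumours and 194, 241 and 180 CPM in WT tumours (0.58 ± 0.33, adjusted p = 0.651), with overlap. Eif3k, a small peripheral subunit, had 85.8, 142 and 90.3 CPM in Rheb1 KO tumours and 152, 159 and 156 CPM in WT tumours (-0.55 ± 0.31, adjusted p = 0.650). Subunits of the same complex thus lay on both sides of 0. Eif4e2, a cap-binding protein that can repress translation, had 50.2, 67.0 and 57.6 CPM in Rheb1 KO tumours and 23.8, 45.5 and 44.8 CPM in WT tumours (0.62 ± 0.41, adjusted p = 0.712).

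The main genes of the cap-binding complex overlapped between the genotypes in bulk tumours. Eif4a1, its helicase, had 304, 333 and 360 CPM in Rheb1 KO tumours and 309, 336 and 329 CPM in WT tumours. Eif4e had 85.6, 152 and 197 CPM in Rheb1 KO tumours and 81.7, 131 and 133 CPM in WT tumours, and the scaffold Eif4g1 had 101, 155 and 91.2 CPM in Rheb1 KO tumours and 86.8, 146 and 115 CPM in WT tumours. The log2 fold changes were 0.03 ± 0.26 for Eif4a1, 0.33 ± 0.37 for Eif4e and -0.0005 ± 0.34 for Eif4g1, with adjusted p of 0.983, 0.851 and 0.9996 by edgeR, and those of the paralogues Eif4a2 and Eif4g3 were -0.55 ± 0.47 and 0.29 ± 0.34. The groups also overlapped for Eif4b, the cofactor of the helicase, which had 183, 256 and 213 CPM in Rheb1 KO tumours and 226, 203 and 193 CPM in WT tumours.

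Among the elongation factors, Eef1a1 had 324, 690 and 384 CPM in bulk Rheb1 KO tumours and 780, 668 and 221 CPM in WT tumours, with WT tumour 110 the lowest and WT tumour 35 the highest of the 6. Eef2 had 621, 1329 and 604 CPM in Rheb1 KO tumours and 696, 888 and 627 CPM in WT tumours. Eif5a, a factor that carries the hypusine residue and eases elongation, had 214, 297 and 250 CPM in Rheb1 KO tumours and 371, 333 and 258 CPM in WT tumours. In CPM all 3 genes overlapped between the genotypes, as did the paralogues Eif4a2 and Eef1a2, whereas the TPM of Eef1a1 given above were lower in each Rheb1 KO tumour than in each WT tumour (-0.50 ± 0.28 with limma, adjusted p = 0.591). Eif4a2 had 89.0, 77.0 and 270 CPM in Rheb1 KO tumours and 278, 163 and 199 CPM in WT tumours, and Eef1a2 had 62.96, 25.8 and 27.3 CPM in Rheb1 KO tumours and 21.7, 39.2 and 18.7 CPM in WT tumours. Rheb1 KO tumour 37 had the highest value of the 6 tumours for Eef2, Eif3b, Eif3e and Eif2b4. Without this tumour the median log2 fold change of the members was -0.18, against 0.07 with it.

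**Figure D1:**
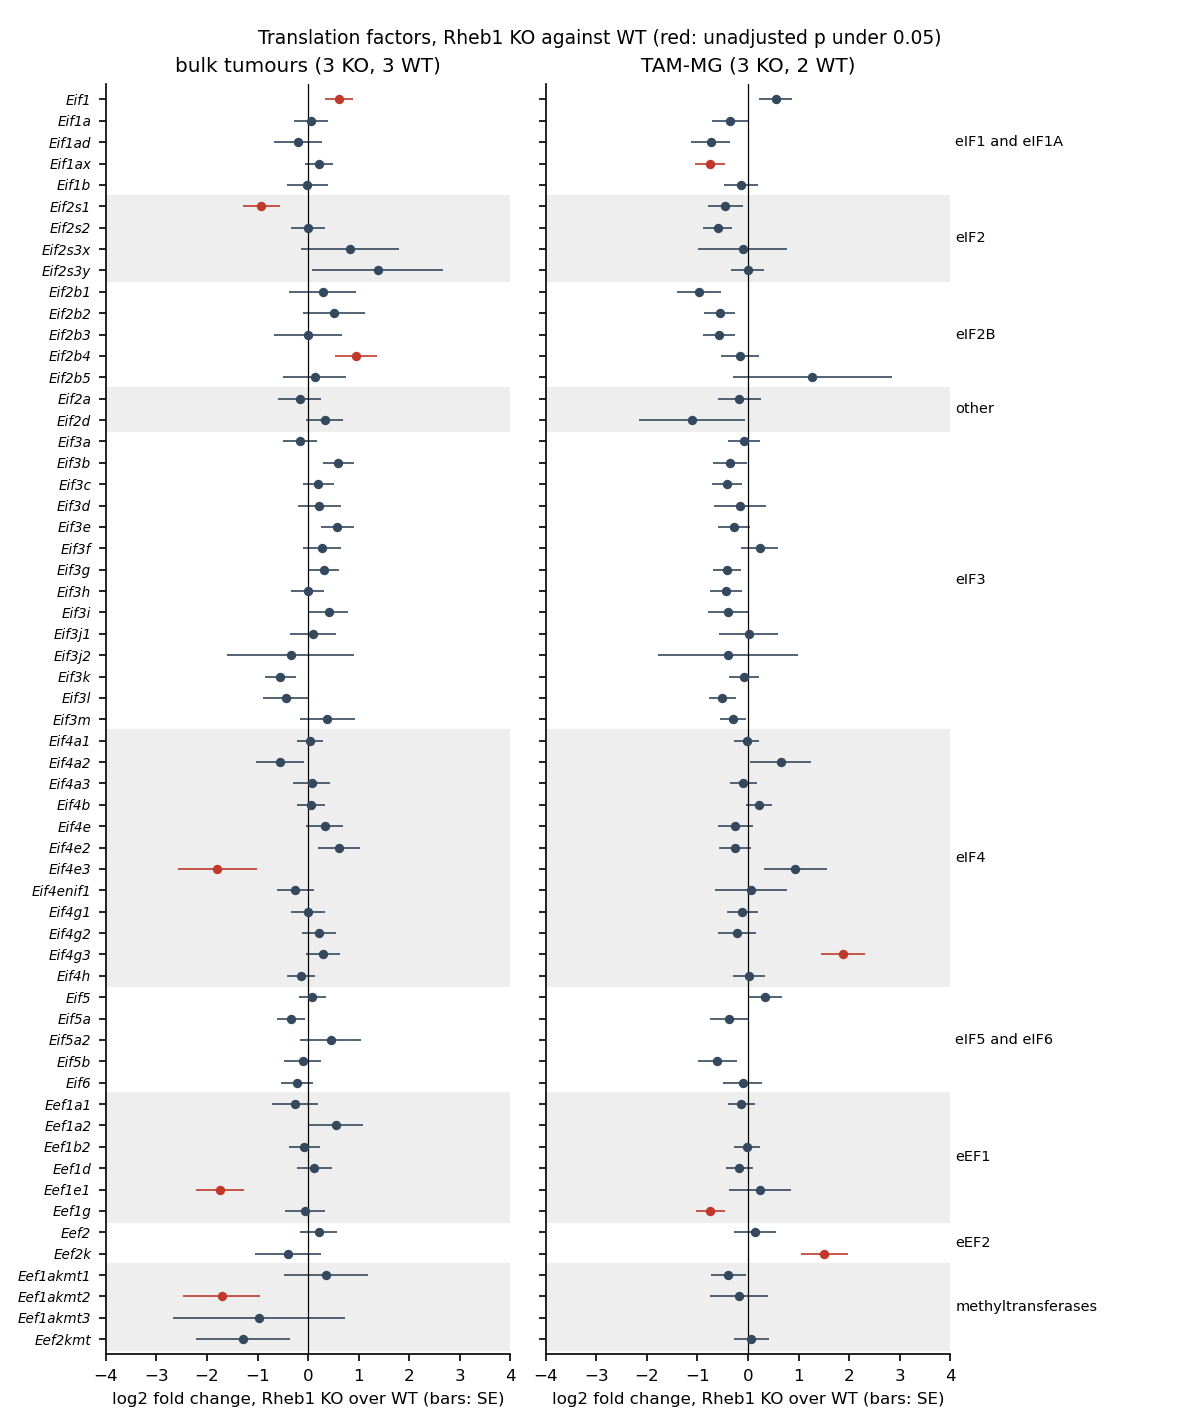
Log2 fold change of each tested factor, Rheb1 KO over WT, in bulk tumours (left) and TAM-MG (right), grouped by role, with bars for the standard error and red points for an unadjusted p under 0.05. Points lie on both sides of 0 in bulk tumours, 33 positive and 26 negative, and mostly left of 0 in TAM-MG, 15 positive and 41 negative.

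In TAM-MG, where the deletion was directed, no factor was called among 56 tested by the edgeR quasi-likelihood test, and no other gene was (0% of 14872 genes). At an unadjusted p under 0.05, 2 members were higher and 2 lower, against 5.47% of all genes higher and 2.3% lower. The likelihood ratio test called 1 member higher (Eif4g3) and DESeq2 called 2 (Eif4g3 and Eef2k), against 1.18% and 4.78% of all genes called higher by these tests, which is near the background for 56 members. Negative values prevailed: 41 of the 56 log2 fold changes were below 0, with a median of -0.17, against 46.5% of all genes and a median of 0.08. Other scalings of the counts left 41 to 50 of 56 below 0, the 50 with an equal mean log CPM, where 65.5% of all genes were below 0. TPM left 33 of 58 below 0, against 41.4% of all genes. With 3 libraries against 2 the precision was limited, and 44 of the 56 factors were within 1.5-fold. Left out in turn, the libraries moved the median between -0.26 and -0.11, the lowest without WT 74.

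Eif4g3 encodes eIF4GII, the lesser scaffold of the cap-binding complex. It had 60.1, 78.8 and 106 CPM in TAM-MG of Rheb1 KO mice, against 17.0 and 27.3 CPM in WT cells. All Rheb1 KO samples were above both WT samples, with a log2 fold change of 1.88 ± 0.43 (SE, edgeR adjusted p = 0.502), an adjusted p of 0.0332 in the likelihood ratio test and 0.0015 in DESeq2. Its paralogue Eif4g1 had 57.7, 51.0 and 67.9 CPM in Rheb1 KO cells and 62.1 and 64.9 CPM in WT cells, which overlapped (-0.11 ± 0.30, adjusted p = 0.984). In TPM, Eif4g3 had 18.7, 20.96 and 32.5 in Rheb1 KO cells and 5.87 and 5.05 in WT cells.

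Eef2k encodes the kinase that phosphorylates eEF2 and slows elongation, and it is itself held in check downstream of mTORC1. It had 37.1, 31.9 and 37.996 CPM in TAM-MG of Rheb1 KO mice, against 11.2 and 13.9 CPM in WT cells. The groups did not overlap (1.51 ± 0.47, edgeR adjusted p = 0.507), and the adjusted p was 0.264 in the likelihood ratio test and 0.00406 in DESeq2. Its substrate Eef2 had 1817, 980 and 918 CPM in Rheb1 KO cells and 863 and 1381 CPM in WT cells, which overlapped. In bulk tumours Eef2k had 28.4, 32.0 and 7.19 CPM in Rheb1 KO tumours and 43.0, 17.3 and 29.0 CPM in WT tumours, also with overlap.

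The 2 lower members at an unadjusted p under 0.05 were Eef1g and Eif1ax. Eef1g, a structural subunit of eEF1B and a TOP mRNA, had 311, 198 and 230 CPM in TAM-MG of Rheb1 KO mice, against 385 and 443 CPM in WT cells (-0.75 ± 0.28, adjusted p = 0.552). Eif1ax, the X-linked gene of the scanning factor eIF1A, had 47.6, 40.7 and 47.2 CPM in Rheb1 KO cells, against 81.0 and 71.1 CPM in WT cells (-0.75 ± 0.30, adjusted p = 0.552). Neither overlapped between the genotypes. Next in order were Eif2b1, the alpha subunit of eIF2B (61.6, 80.6 and 35.2 CPM in Rheb1 KO cells, 140 and 90.9 CPM in WT cells) and Eif2s2, the beta subunit of eIF2 (80.4, 105 and 113 CPM in Rheb1 KO cells, 168 and 134 CPM in WT cells). Eif1ad, a relative of eIF1A, had 82.9, 40.1 and 77.9 CPM in Rheb1 KO cells and 118 and 106 CPM in WT cells.

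By role, all 4 members of eIF2, 4 of 5 of eIF2B and 12 of 14 of eIF3 had negative values in TAM-MG, with medians of -0.28, -0.56 and -0.33, though Eif3a and Eif3k were positive in TPM. No member of these complexes had an unadjusted p under 0.05. Genes of proliferation were lower beside them. The summed level of 6 markers, scaled over all 11 libraries, was 345 to 666 CPM in Rheb1 KO cells and 783 to 1111 CPM in WT cells. Of the 6 markers, 3 were lower at an unadjusted p under 0.05, against 2.3% of all genes. The part of these markers in the factors' values was not tested. Eif2b5, the catalytic subunit of eIF2B, rested on a single library. It had 1057, 1154 and 1052 counts in Rheb1 KO cells, against 6 counts in WT 74 and 717 in WT 78, and its log2 fold change was 1.27 with both, 0.29 without WT 74 and 7.88 without WT 78.

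None of the other named factors had an unadjusted p under 0.05 in TAM-MG. Eif4e3 had 17.4, 22.5 and 38.3 CPM in Rheb1 KO cells and 10.8 and 16.5 CPM in WT cells, with no overlap (0.93 ± 0.63, adjusted p = 0.769). Eif1 had 198, 314 and 316 CPM in Rheb1 KO cells and 218 and 159 CPM in WT cells. Eif4a2, the second eIF4A helicase, ran from 135 to 284 CPM in Rheb1 KO cells and had 229 and 64.9 CPM in WT cells, and leaving out a library moved its log2 fold change between 0.02 and 1.84. The initiation genes Eif4a1, Eif4e, Eif4b and Eif2s1 overlapped as well. Eif4a1 had 930.0, 813 and 704 CPM in Rheb1 KO cells and 870 and 795 CPM in WT cells, and Eif4e had 114, 133 and 151 CPM in Rheb1 KO cells and 110 and 207 CPM in WT cells. Eif4b had 226, 216 and 201 CPM in Rheb1 KO cells and 153 and 216 CPM in WT cells, and Eif2s1 had 134, 165 and 162 CPM in Rheb1 KO cells and 142 and 278 CPM in WT cells. The abundant elongation genes overlapped too. Eef1a1 had 2895, 2727 and 2983 CPM in Rheb1 KO cells and 2773 and 3504 CPM in WT cells, and Eif5a had 1079, 545 and 534 CPM in Rheb1 KO cells and 941 and 920 CPM in WT cells.

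**Figure D2:**
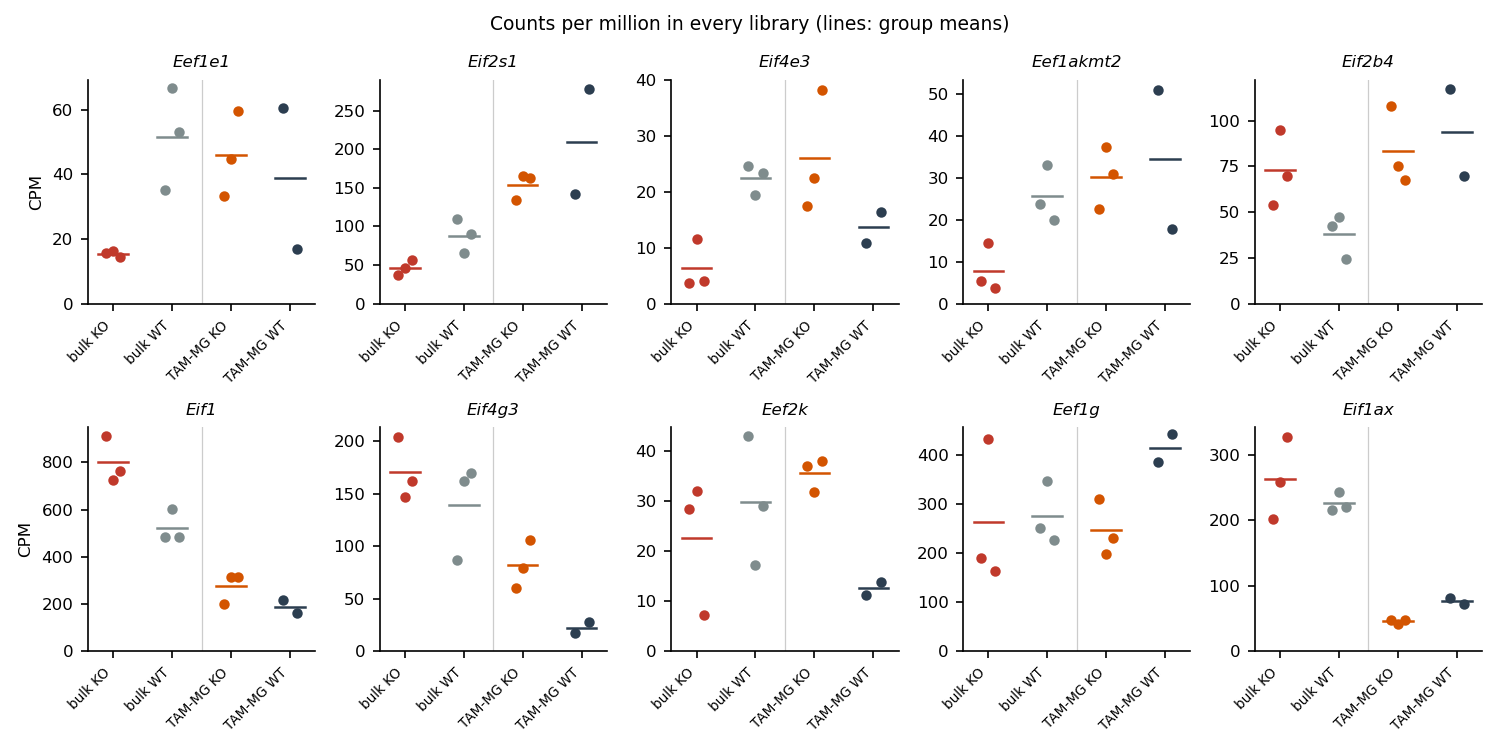
Level in every library, in CPM scaled within each experiment, of named factors, with Rheb1 KO left of WT in bulk tumours and in TAM-MG. Eef1e1 is at 14.4 to 16.3 CPM in bulk Rheb1 KO tumours and at 35.2 to 66.5 CPM in WT tumours, and Eif4g3 is at 60.1 to 106 CPM in TAM-MG of Rheb1 KO mice and at 17.0 and 27.3 CPM in WT cells.

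The genotype effects in TAM-MG and in bulk tumours were compared in a single model of all 11 libraries. None of 59 members was called, against 0.225% of all genes. At an unadjusted p under 0.05 the effect was higher in TAM-MG for 3 members and lower for 1, against 9.3% and 2.93% of all genes. The likelihood ratio test called none either, against 3.91% of all genes. The difference, TAM-MG minus bulk, was 2.77 ± 1.03 for Eif4e3 (edgeR adjusted p = 0.339), 2.05 ± 0.79 for Eef1e1 (adjusted p = 0.351), 1.62 ± 0.58 for Eif4g3 (adjusted p = 0.325) and -0.93 ± 0.42 for Eif1ax (adjusted p = 0.399). The opposite genotype effects of Eif4e3 in the 2 experiments, -1.80 in bulk tumours and 0.93 in TAM-MG, were thus not shown to differ at the threshold. Without WT 78 of TAM-MG 1 member was called, Eif2b5, whose remaining WT library held 6 counts (7.85 ± 1.32, adjusted p = 0.0185).

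Levels in bulk tumours were then set against TAM-MG. Of 59 members, 8 were called higher and 25 lower in bulk tumours by the edgeR quasi-likelihood test, against 32.4% of all genes called higher and 20.5% called lower. The median log2 difference of the members was -0.67, against 0.89 over all 21342 genes. The difference depends on how the 2 kinds of library are scaled: the median of all genes was 1.06 with RLE factors, 1.45 with library size alone and -0.23 with an equal mean log CPM, and the members' median was -0.51, -0.10 and -1.84 in turn, below that of all genes each time. Rescaled TPM gave a members' median of 0.28, against 0.73 over all genes. RNA of fixed tissue and of sorted cells cannot be told apart from cell make-up in this comparison.

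Lower in bulk tumours in all 12 fits over scalings, filters, tests, units and genotypes were 5 members, Eif4a1, Eif2s1, Eif2b3, Eif3m and Eif4e2. Eif4a1 had 254 to 303 CPM in the 6 bulk tumours (median 274), against 1162, 1036, 886, 1031 and 986 CPM in the 5 TAM-MG samples (-1.90 ± 0.17, adjusted p = 1.22e-05). Eif2s1 had 31.6 to 90.1 CPM in bulk tumours (median 50.8), against 168, 211, 204, 168 and 344 CPM in TAM-MG (-2.06 ± 0.26, adjusted p = 0.000114). Eif3m, a subunit of eIF3, had 10.6 to 43.5 CPM in bulk tumours (median 35.1) and 141 to 189 CPM in TAM-MG (-2.44 ± 0.34, adjusted p = 0.000228). No bulk tumour reached a TAM-MG sample in these genes.

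Several of the most abundant factors were lower in bulk tumours too. Eef1a1 had 183 to 640 CPM in bulk tumours (median 440), against 3619, 3475, 3752, 3287 and 4348 CPM in TAM-MG (-3.13 ± 0.33, adjusted p = 3.44e-05). In rescaled TPM the Eef1a1 difference kept its sign but was small, at -0.21, and missed the threshold. Eif5a had 179 to 304 CPM in bulk tumours (median 230), against 1349, 695, 672, 1115 and 1142 CPM in TAM-MG (-2.09 ± 0.24, adjusted p = 5.29e-05). Eif6, which keeps the 60S subunit from joining too early, had 52.1 to 74.9 CPM in bulk tumours (median 63.4) and 191.9 to 391.8 CPM in TAM-MG (-2.16 ± 0.25, adjusted p = 6.34e-05). In rescaled TPM both calls were lost, with -2.66 ± 1.24 for Eif5a (adjusted p = 0.0854), which was listed at 0 in a bulk tumour, and -0.23 ± 0.27 for Eif6 (adjusted p = 0.486). Eef2 is given no direction, since its value was -1.15 from counts and 0.24 from rescaled TPM.

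Of the 5 subunits of the exchange factor eIF2B, Eif2b1, Eif2b2, Eif2b3 and Eif2b4 were called lower, with log2 differences of -2.30, -2.63, -2.48 and -1.32, whereas in rescaled TPM Eif2b2 was at -0.45 and missed the threshold (adjusted p = 0.185) and Eif2b4 was called higher, at 0.99 (adjusted p = 0.0158). Eif2b5 had -0.94 ± 0.82 and was not called, and its value was 2.54 without WT 78 and -1.29 without WT 74. Of the 14 eIF3 subunits 6 were called lower and none higher, of which Eif3c, Eif3d and Eif3k had positive values in rescaled TPM, and of the 4 methyltransferases 3 were called lower. Among them Eef2kmt, which methylates eEF2, had 1.60 to 31.6 CPM in bulk tumours and 76.2 to 126 CPM in TAM-MG (-3.13 ± 0.56, adjusted p = 0.000985), while in rescaled TPM it was 0.28. Eef2kmt overlaps Alg1 and Eif3m overlaps Ccdc73 on the other strand.

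**Figure D3:**
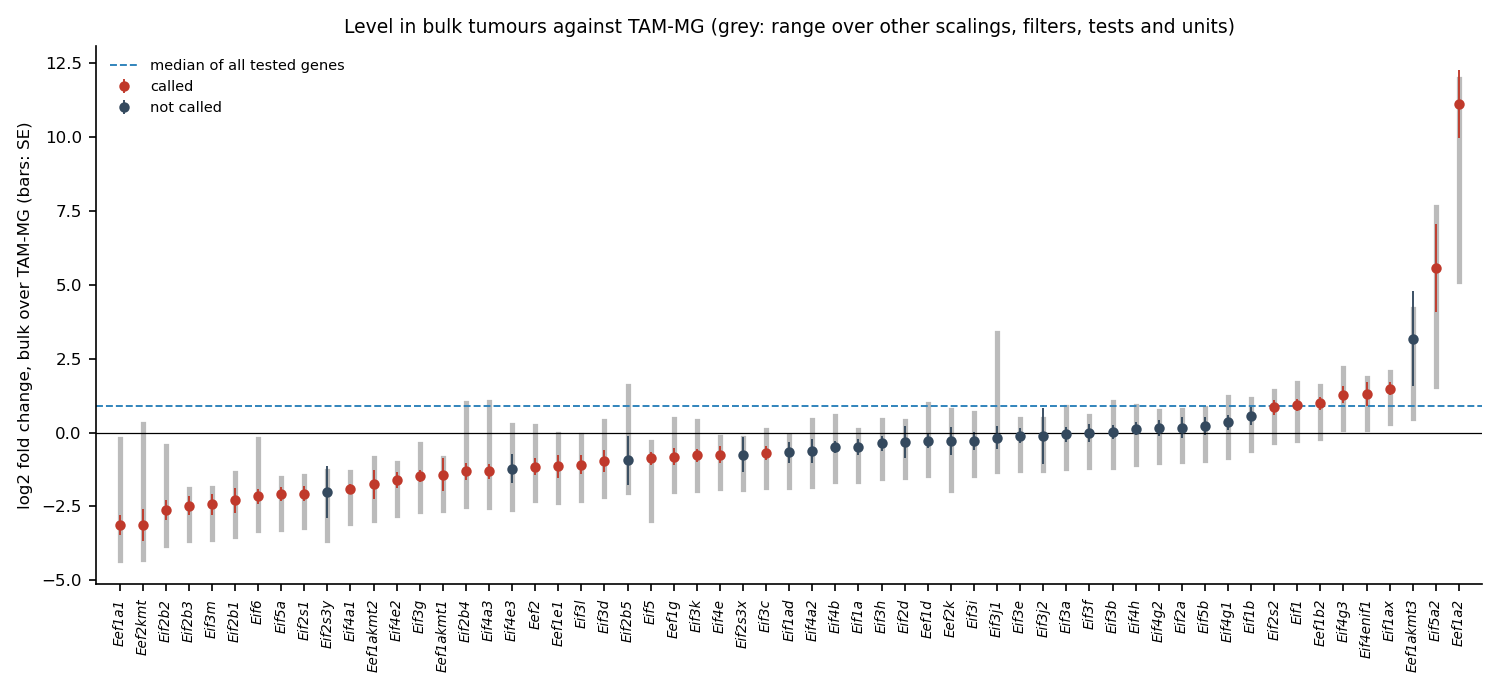
Log2 difference in level of each tested factor, bulk tumours over TAM-MG, in order of size, with bars for the standard error, red points for called genes and grey bars for the range over other scalings, filters, tests and units. The factors run from -3.13 for Eef1a1 to 11.1 for Eef1a2, which was tested only through the bulk tumours. Most lie below the dashed median of all genes at 0.89, and a grey bar that crosses 0, as for Eef2 or Eif2b4, marks a gene whose sign depends on the setting.

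Higher in bulk tumours were 2 tissue-restricted paralogues. Eef1a2, the eEF1A gene of neurons and muscle, had 15.4 to 52.7 CPM in bulk tumours (median 22.2), against 1 count in a single Rheb1 KO sample and none in the other 4 TAM-MG samples. Over all libraries it had 3429 counts in bulk tumours and 1 in TAM-MG, a ratio, after scaling each to its library total, of 4022 with a 95% counting interval of 721 to 158917 (Clopper-Pearson, counting error only). Eif5a2 had 2344 counts in bulk tumours and 48 in TAM-MG, 42 of them in WT 78, a ratio of 57.3 with an interval of 43.1 to 77.9. Neither gene passed the count filter within TAM-MG, so both were tested for level only through the bulk tumours, where they are high. Their calls as higher are therefore a description of near-absence in TAM-MG. Summed over 8 neuronal markers, bulk tumours had 1052 to 3051 CPM and TAM-MG 7.39 to 28.3 CPM. Astrocyte markers summed to 844 to 3612 CPM in bulk tumours and 184 to 367 CPM in TAM-MG. Oligodendrocyte markers summed to 1856 to 3109 CPM and 227 to 333 CPM in turn. The sums of microglia and macrophage markers were lower in bulk tumours. The part of these cell types in the values of Eef1a2 and Eif5a2 was not tested.

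Ubiquitous factors were among the higher ones as well. Eif1ax had 169 to 275 CPM in bulk tumours (median 192), against 59.5, 51.8, 59.4, 96.0 and 88.3 CPM in TAM-MG (1.48 ± 0.22, adjusted p = 0.000294), and the smallest value over the other settings was 0.32. In rescaled TPM the Eif1ax call was lost, at 0.49 ± 0.29 (limma adjusted p = 0.165). Eif4g3 had 70.8 to 171 CPM in bulk tumours, against 75.1, 101, 133, 20.1 and 33.9 CPM in TAM-MG (1.29 ± 0.29, adjusted p = 0.00437), of which the last 2 are those of WT cells. Eef1b2, a nucleotide exchange subunit of eEF1B, had 434 to 787 CPM in bulk tumours and 265 to 349 CPM in TAM-MG (0.99 ± 0.21, adjusted p = 0.00322), and Eif1 had 395 to 763 CPM in bulk tumours and 198 to 401 CPM in TAM-MG (0.93 ± 0.21, adjusted p = 0.00434). With an equal mean log CPM in every library both of these turned to the other side of 0, Eef1b2 at -0.18 and Eif1 at -0.26.

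Shares within a pair of paralogues do not depend on the scaling of a library. In TPM, Eif1ax held 51.0 ± 8.34% of the summed level of Eif1a and Eif1ax in bulk tumours and 28.1 ± 4.08% in TAM-MG (SD, n = 6 and 5, exact permutation test, p = 0.00433, the smallest it can give, adjusted over 8 pairs p = 0.0115), with no overlap. Eif4a2 held 30.8 ± 6.66% of its pair with Eif4a1 in bulk tumours and 12.9 ± 6.51% in TAM-MG (adjusted p = 0.0173, exact permutation test), and from counts 33.6% in bulk tumours and 18.9% in TAM-MG, which missed the threshold (adjusted p = 0.0762, exact permutation test). Eef1a2 held 1.81 ± 1.21% of its pair in bulk tumours and 0.000118% in TAM-MG (adjusted p = 0.0115, exact permutation test). With Eef1a2 and Eif5a2 nearly absent from TAM-MG, the outcome of this test was fixed for their pairs and adds nothing to their counts. For Eif5a2 counts gave a share of 7.31 ± 2.98% in bulk tumours, against 0.0562% in TAM-MG (adjusted p = 0.0115, exact permutation test). In TPM, Eif5a was listed at 0 in WT tumour 35, where it had 371 CPM, so its TPM share is not given. Eif1b, Eif4g3, Eif4e2 and Eif4e3 did not pass the test in TPM, with adjusted p of 0.409 to 0.931 (exact permutation test). For Eif4e2 the units went opposite ways, with 55.3 ± 14.9% in bulk tumours and 49.4 ± 6.55% in TAM-MG in TPM, and 27.3 ± 5.60% in bulk tumours and 40.4 ± 7.81% in TAM-MG from counts, where it passed (adjusted p = 0.0346, exact permutation test), so no direction is given.

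**Figure D4:**
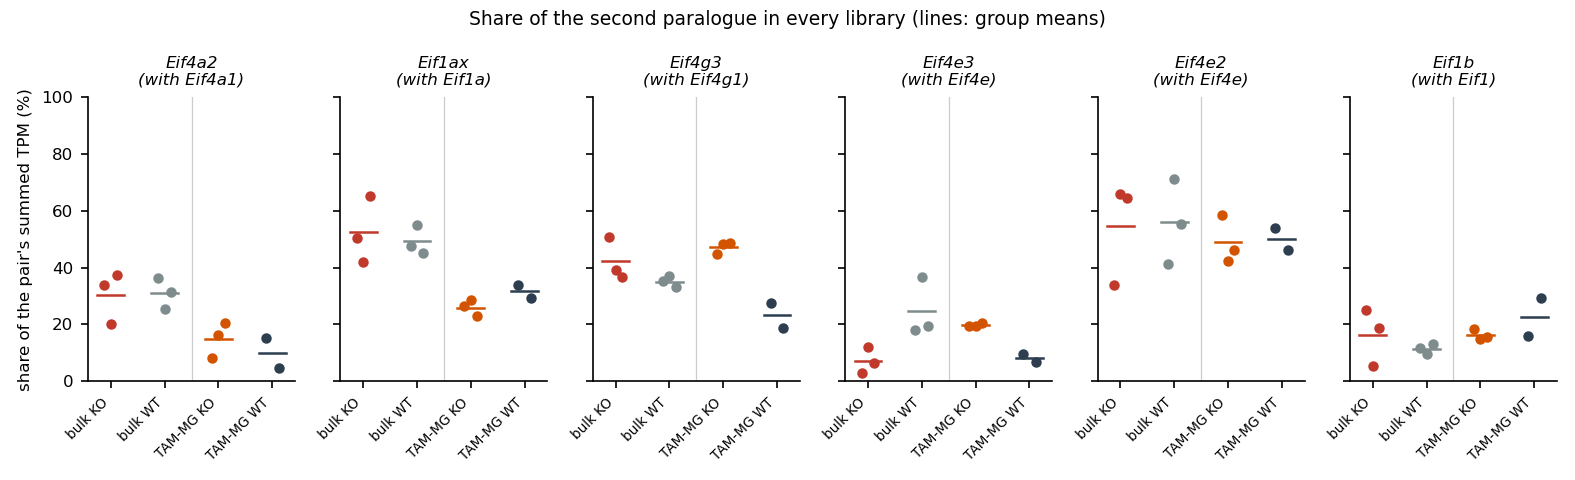
Share of the second paralogue in the summed TPM of its pair, in percent, for each library, with Rheb1 KO left of WT in bulk tumours and TAM-MG and lines at the group means. Eif1ax lies at 41.9 to 65.3% in bulk tumours and 22.9 to 34.0% in TAM-MG, and Eif4g3 lies at 44.8 to 48.7% in TAM-MG of Rheb1 KO mice and at 27.7 and 18.5% in WT cells.

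Between genotypes, shares could not pass a test, since the smallest exact permutation p was 0.1 for 3 tumours against 3 and 0.2 for 3 TAM-MG samples against 2. In bulk tumours Eif4e3 held 2.73, 12.04 and 6.17% of its pair with Eif4e in Rheb1 KO tumours, against 18.02, 36.7 and 19.5% in WT tumours, with no overlap (exact permutation p = 0.1). In TAM-MG its share had the opposite order, 19.4, 19.3 and 20.4% in Rheb1 KO cells against 9.52 and 6.62% in WT cells. Eif4g3 held 44.8, 48.4 and 48.7% of its pair with Eif4g1 in TAM-MG of Rheb1 KO mice, against 27.7 and 18.5% in WT cells (exact permutation p = 0.2). In TPM the values of these pairs within Rheb1 KO cells lay close together. From counts they were wider apart, at 13.2, 14.5 and 20.2% for Eif4e3 and 51.0, 60.7 and 61.0% for Eif4g3.

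eIF2 gamma is encoded by Eif2s3x on the X and Eif2s3y on the Y chromosome, so its mRNA follows the sex of the mouse and of the injected cells. Eif2s3y had 587, 296 and 302 counts in bulk Rheb1 KO tumours, against 0, 319 and 229 in WT tumours. In TAM-MG it had 965, 1126 and 975 counts in Rheb1 KO cells and 1430 and 776 in WT cells. WT tumour 35, the library with 0, had 10643 counts of Xist, the RNA of the inactive X, and no counts of Ddx3y, Uty or Kdm5d, and the other 10 libraries had counts of each Y gene and 0 to 5 of Xist. The TPM of this library differed from its counts, with 8.65 TPM of Uty, above the 3.03 and 4.69 TPM of the other WT tumours, and 1.17 TPM of Kdm5d, but 0.0354 TPM of Ddx3y and 0 of Eif2s3y. The 1.38 log2 difference of Eif2s3y in bulk tumours (adjusted p = 0.816) included this library. Eif2s3x had 140, 237 and 110 counts in bulk Rheb1 KO tumours and 74, 164 and 79 in WT tumours, and 201, 251 and 125 counts in TAM-MG of Rheb1 KO mice and 275 and 164 in WT cells.

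Per length, the Y copy was the more abundant in TAM-MG, with 1.24 to 2.24 times the TPM of Eif2s3x in the 5 samples, and by counts 4.49 to 7.8 times. Eif2s3x was not among the genes of the bulk TPM table used here. In bulk tumours the ratio of counts was 1.25 to 4.19 in Rheb1 KO tumours and 0, 1.95 and 2.90 in WT tumours. Eif2s3x can share reads with its near copies, so its level is uncertain.

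**Figure D5:**
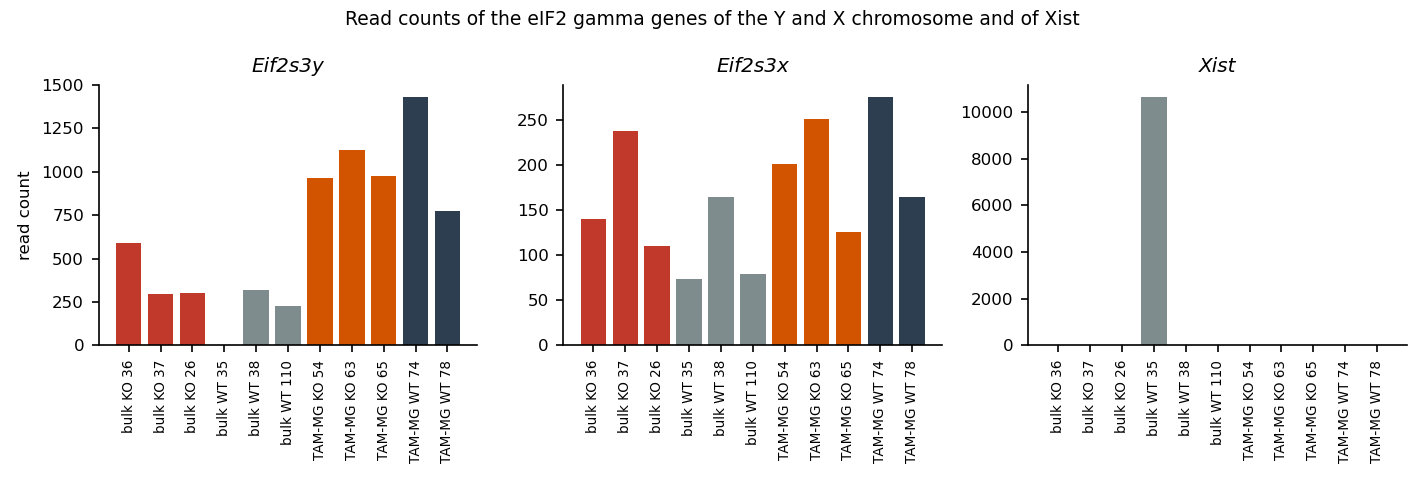
Read counts of Eif2s3y, Eif2s3x and Xist in each of the 11 libraries, with Rheb1 KO left of WT in bulk tumours and TAM-MG. Eif2s3y is at 0 and Xist at 10643 in WT tumour 35, whereas the other libraries have 229 to 1430 counts of Eif2s3y and at most 5 of Xist.

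Genes that act on the factors were examined by list, and none of them was called between the genotypes by the edgeR quasi-likelihood test in either experiment. At an unadjusted p under 0.05, 3.82% of all genes were higher and 5.19% lower in bulk tumours. In TAM-MG these shares were 5.47% and 2.3%. Of 9 tested mTORC1 effectors on initiation, Mknk2 and Pdcd4 were higher at an unadjusted p under 0.05 in bulk Rheb1 KO tumours, and Mknk2 and Eif4ebp2 in TAM-MG of Rheb1 KO mice. Mknk2, a kinase of eIF4E, had 77.7, 115 and 83.3 CPM in bulk Rheb1 KO tumours, against 31.0, 53.9 and 33.3 CPM in WT tumours (1.23 ± 0.38, adjusted p = 0.300). In TAM-MG it had 66.8, 60.9 and 59.4 CPM in Rheb1 KO cells, against 34.3 and 36.3 CPM in WT cells (0.82 ± 0.31, adjusted p = 0.552). The groups did not overlap in either experiment. Eif4ebp2, an eIF4E-binding protein that mTORC1 inactivates, had 13.6, 25.1 and 19.6 CPM in TAM-MG of Rheb1 KO mice, against 2.81 and 4.24 CPM in WT cells (2.46 ± 0.80, adjusted p = 0.519), whereas Eif4ebp1 had 99.98, 51.8 and 65.9 CPM in Rheb1 KO cells and 91.5 and 111 CPM in WT cells.

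The remaining lists had few members past an unadjusted p of 0.05. Among the 8 eIF2 kinases and phosphatase genes and the 5 poly(A)-binding genes there was none in either experiment. Of 9 genes of termination and rescue 1 was higher in TAM-MG of Rheb1 KO mice, Gspt2, a paralogue of the release factor eRF3, with 5.13, 7.76 and 10.01 CPM in Rheb1 KO cells and no counts in both WT samples, so that it was tested only through the Rheb1 KO samples. Of 8 tested genes that modify eIF5A and eEF2, Dph5, an enzyme of the diphthamide of eEF2, was lower in bulk Rheb1 KO tumours, with 12.2, 10.99 and 5.36 CPM against 68.3, 43.9 and 64.6 CPM in WT tumours (-2.63 ± 0.52, adjusted p = 0.154). Of 11 mitochondrial and selenocysteine factors, Tufm, Gfm2 and Eefsec were lower in bulk Rheb1 KO tumours and none in TAM-MG, and the counts of Gfm2 are uncertain because the strand setting is not given. In the TOP list, none of 10 members was past an unadjusted p of 0.05 in bulk tumours and 1 of 9, Eef1g, was lower in TAM-MG.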

How the data were processed

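SmartSeq2 and Nextera XT libraries were sequenced paired-end on a HiSeq4000. The authors aligned reads to GRCm38 with STAR and deposited raw counts per gene of Ensembl, and they deposited gene-level TPM estimated with Salmon. Tool versions and the strand setting of the counting are not given in the sources used here. The bulk TPM table holds 12719 genes and 58 of the members, and that of TAM-MG holds 34839 genes and 60. The TAM-MG tables end in an unnamed total, 100% of the sum over genes, which was left out.

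The count test was that of edgeR 4.0.16, run in R 4.3.3 (filterByExpr at a count of 10 and a summed count of 15, TMM, quasi-likelihood test, Benjamini-Hochberg over all tested genes), within each experiment for genotype and over all 11 libraries for the interaction and for level. Calls needed an adjusted p below 0.05 together with a 1.5-fold or larger change. CPM are scaled within an experiment, and over all 11 libraries for level and for summed markers. Paralogue shares were tested with an exact two-sided permutation test, adjusted over 8 pairs. Alternatives were RLE, library size and equal-mean scaling, other filters, the likelihood ratio test, DESeq2 1.42.0, limma 3.58.1 on log2(TPM + 1) and log2(TPM + 0.1), and leaving out each library. The test was checked on simulated data. Named factors are a list of 13 and, in each comparison, the 5 higher and the 5 lower of smallest p, and members also named for a call by another test, an overlap, a single library or a paralogue pair were chosen after their values were seen. The members, lists and tests were chosen with earlier results of these data known.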

Additional observations from a re-analysis of the deposited data

How the results depend on the processing

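In bulk tumours the likelihood ratio test and DESeq2 called 1 member lower each, and in TAM-MG they called 1 and 2 higher, against 0 by the quasi-likelihood test. Over all genes the likelihood ratio test and DESeq2 called 260 and 569 lower in bulk tumours and 175 and 791 higher in TAM-MG. The median log2 fold change of the members in TAM-MG was -0.65 with an equal mean log CPM, where that of all genes was -0.40, was -0.053 and -0.052 with TPM at pseudocounts of 1 and 0.1, and ran from -0.26 to -0.11 with a library left out. Leaving out libraries gave 0 to 1 members called higher in the interaction. For level, members called higher in bulk tumours numbered 13 with library size alone, 2 with an equal mean, 15 with TPM at either pseudocount and 5 with WT libraries only, against 8, and members called lower numbered 13, 47, 13 and 16 under these settings and 16 to 24 with a library left out, against 25. The median level difference was -0.10 with library size alone, -1.84 with an equal mean, -0.44 when every library had to hold 10 counts, 0.28 and 0.32 with TPM at pseudocounts of 1 and 0.1, -0.45 with Rheb1 KO libraries only and -0.61 to -0.38 with a library left out, against -0.67. In TPM the sign was the other one for 15 of 56 members in bulk tumours, 9 of 56 in TAM-MG and 21 of 56 for level. Among the list of 13 and the named members, values that turned sign included Eif1 in bulk tumours (-0.55 with TPM at either pseudocount) and, for level, Eef1b2 (-0.18), Eif1 (-0.26) and Eif4g1 (-0.82) with an equal mean, Eef2 (0.24 with TPM at either pseudocount) and Eif4b (0.10 with library size alone, 0.56 and 0.57 with TPM). From raw counts the difference in paralogue share, bulk minus TAM-MG, was 14.7 percentage points for Eif4a2, 12.2 for Eif4g3 and -13.2 for Eif4e2, the last opposite in sign to TPM and past the threshold. The difference between Rheb1 KO and WT was 3.503 percentage points for Eef1a2, -11.1 for Eif4a2 and -5.86 for Eif1b in bulk tumours, and 0.000513 for Eef1a2, -0.102 for Eif5a2, 32.0 for Eif4g3 and 7.82 for Eif4e3 in TAM-MG. The cause of these differences was not tested. No paired analysis was possible because the groups share no replicate numbers. Depth limits Eif3j2, Eef1akmt3 and Eif2s3x, which had few counts.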

Other observations

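Ppp1r15a, the stress-induced partner of the phosphatase of eIF2 alpha, had 8.91 to 34.95 CPM in the bulk tumours, against 635 to 1137 CPM in TAM-MG of Rheb1 KO mice and 1747 and 209 CPM in TAM-MG of WT mice, scaled over all 11 libraries (-5.26 ± 0.53, bulk over TAM-MG, edgeR adjusted p = 2.52e-05).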
